A study of Mus musculus with 4 samples.

Results

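The genes described here make cholesterol or export it from the cell. They were taken from a list of 30 symbols, through probe sets annotated with that symbol alone, and each gene was represented by its probe set with the highest mean log2(signal + 16) over 4 arrays. Of the 30 genes, 27 had such a probe set and all 27 passed the filter on low signals, among 13139 genes tested in all. Acat2, Soat1 and Nr1h2 were not matched. Total RNA was measured in 2 samples of G-MDSC, the granulocytic class of myeloid-derived suppressor cells, and 2 of neutrophils from female C57BL/6 mice, whose ages the labels do not give. G-MDSC, described as CD11b+Ly6G+Ly6Clow, were collected on Ly6G beads from spleens of mice that had carried subcutaneous EL4 lymphoma cells for 3.5 weeks. Neutrophils were lavaged from the peritoneum 3 h after the last of 2 casein injections (1.5 ml of 12% casein, 16 h apart), and F4/80-positive cells were removed before Ly6G selection. Tissue, tumour, casein and sorting therefore cannot be told apart from cell kind. No label says whether animals were pooled or samples came from separate mice, so the spread between samples is possibly of technical origin. Each p-value rests on that spread and on variances moderated across genes, and may not reflect spread between animals.

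Cells build cholesterol from acetyl-CoA through mevalonate, farnesyl diphosphate and squalene, and the ring-shaped sterols are then trimmed step by step to cholesterol. When membranes run short of sterol, the escort protein SCAP carries SREBP2 out of the endoplasmic reticulum, and the freed factor switches on the synthesis genes. When sterol is ample, INSIG proteins hold SCAP back, while oxysterols activate the liver X receptors (LXR), which raise the exporters ABCA1 and ABCG1 and the ubiquitin ligase IDOL, encoded by Mylip, that lowers uptake. The text below keeps these SREBP2-type and LXR-type genes apart.

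Signals were on a common scale, with a trimmed mean of 500 in each array. Neutrophils replicate 2 stood apart among dim probe sets, with a median signal of 178 against 75.8 to 83.3 in the other 3 arrays. All 10 neutrophil markers with a probe set were above the 40th percentile in the G-MDSC arrays, and their lowest signal in any array was 600.4. Of these 10, 4 were higher in G-MDSC, led by the granule genes Camp (34.3-fold), Ltf (20.8-fold) and Ngp (5.83-fold). Markers of macrophages and mast cells differed too. G-MDSC were lower in 10 of 14 macrophage markers, whose summed signal was 17118 and 17202 in the G-MDSC arrays against 44670 and 65650 in the neutrophil arrays. Csf1r, which was not called, made up most of the G-MDSC sums (11012 and 11272, against 16081 and 17388 in the neutrophil arrays). The largest differences were those of Msr1 (-5.89), Marco (-5.36) and Maf (-3.74) on the log2 scale. Of 8 mast cell markers, 5 were lower, with sums of 18661 and 22158 against 41064 and 30486. Hdc, which was not called, made up most of these sums (15256 and 18052 against 24350 and 24016). Cma1, Mcpt4 and Tpsb2 were at or below the 40th percentile in both G-MDSC arrays. Kit ran the other way (2003 and 3146 against 1551 and 417) and was not called. Of 15 cell cycle genes tested, 6 were higher in G-MDSC, with summed signals over 16 genes of 32412 and 15866 against 12177 and 12070. Of 6 B and plasma cell markers tested, 2 were higher in G-MDSC, Jchain (22.4-fold) and Igha (16.0-fold), and the other 4 were not called. Among all genes tested, 8.30% were higher in G-MDSC and 8.05% lower. No marker of these lists was at a signal of 0. The part of these cells in the results below was not tested.

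Several cholesterol synthesis genes were lower in G-MDSC than in neutrophils. The LXR targets Abcg1 and Mylip were higher, but 14 further LXR and efflux genes, described below, were split, with 3 higher and 3 lower. Of 20 synthesis genes (the enzymes with Insig1, Srebf2 and Stard4), 7 were lower in G-MDSC by limma at an adjusted p under 0.05, namely Mvd, Idi1, Sqle, Lss, Cyp51, Hsd17b7 and Insig1, and 1, Sc5d, was higher. Of 4 LXR-type genes, Abcg1 and Mylip were higher and Nr1h3, itself a liver X receptor, was lower. With Scap, also higher, 8 of all 27 genes were lower and 4 higher, where 8.05% of all genes tested were lower and 8.30% higher. The median log2 difference, G-MDSC minus neutrophils, was -0.90 over the synthesis genes and 1.15 over the LXR-type genes, against -0.18 over all genes tested. Both G-MDSC arrays lay below both neutrophil arrays for 16 of the 20 synthesis genes, which held for 32.2% of all genes. They lay above for 3 of the 4 LXR-type genes, which held for 27.3%.

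The calls rested on few arrays. The directions of the 12 called genes were the same under all 14 alternatives, which carries little weight. The 2 filter settings, the intensity trend and the replicate block left their differences unchanged. The 12 genes were also picked for large differences in these same arrays. Without G-MDSC replicate 1, the calls of Idi1, Sqle, Cyp51 and Mylip remained, and without G-MDSC replicate 2 those of Idi1, Sqle, Cyp51 and Nr1h3. When a neutrophil array was left out, the variance came from the 2 G-MDSC arrays alone. Calls kept in those fits cannot show whether a difference is stable, and no weight was given to them. Median scaling, which moved the median of all genes to 0.42, left Sqle, Cyp51 and Nr1h3 called, with the synthesis median 0.75 below that of all genes and the LXR-type median 1.37 above it. Without the intensity trend, Sqle alone of the 12 remained called. Over all genes, calls higher in G-MDSC made up 50.8% of calls, or 69.8% with median scaling. The synthesis median was 0.34 below that of all genes without neutrophils replicate 1 and 1.15 below without replicate 2. In such RNA from sorted populations, fewer cells of a type and less RNA per cell cannot be told apart.

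**Figure D1:**
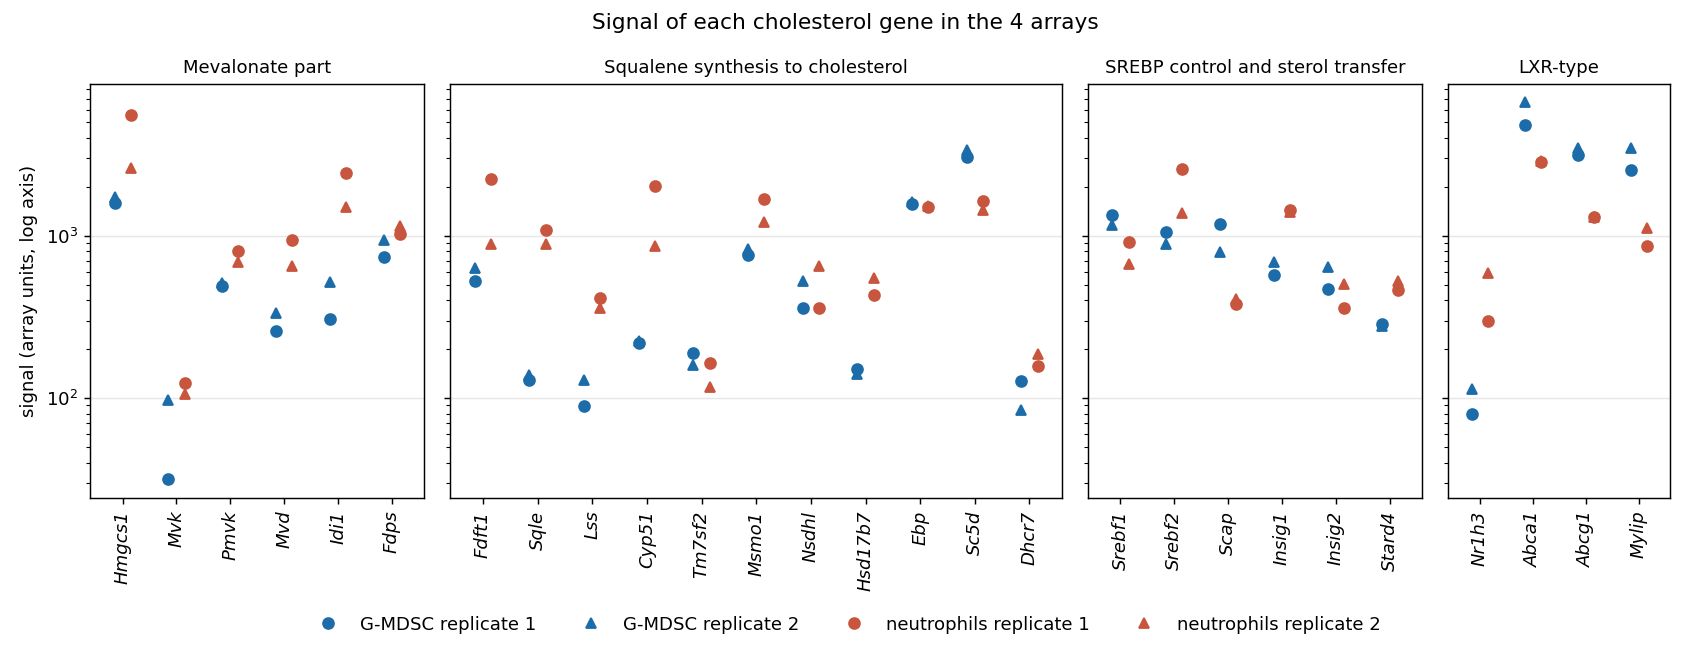
Signal of each of the 27 genes in the 4 arrays, on a log axis in array units, with circles for replicate 1 and triangles for replicate 2 of G-MDSC (blue) and neutrophils (red). Sqle sits at 129 and 138 in G-MDSC and far higher, at 1092 and 888, in neutrophils, while Abcg1 sits at 3137 and 3467 against 1296 and 1308.

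Most of the synthesis genes share a feature of their start regions, whether or not they were lower in G-MDSC. RefSeq promoter sequences of GRCm38.p6 were at hand for 25 of the 30 genes, and not for Fdps, Fdft1, Sqle, Stard4 and Abcg1. The 250 bases before each start were searched on both strands for CCAAT, the letters bound by NF-Y, a known partner of SREBP, and for the sterol regulatory element written as TCACNCCAC. CCAAT was present for 16 of 17 synthesis genes (94.1%), against 37.5% of 27025 genes in the table, and at 2 or more places for 52.9% against 11.5%. The synthesis gene without it, Acat2, was not measured. The motif did not separate genes lower in G-MDSC from the others. CCAAT was also present for Sc5d, which was higher, and for Ebp, Nsdhl and Tm7sf2, which did not pass. Among LXR-type genes, CCAAT was present for 1 of 4, Mylip. The sterol element was present for Hmgcs1 alone of the 25, against 1.22% of all genes. A match describes these letters and is not evidence of a working site. Only this written form of the sterol element was searched, so a missing match is not evidence that a gene lacks one. Genes with several starts were counted if any window held the motif. The sequences below run 5′ to 3′ up to the base before the start, with both motifs in capitals. They show Hmgcs1 (chr13:119690101-119690350, plus strand), which was not called, with the sterol element and 3 CCAAT boxes. Idi1 (chr13:8885356-8885605, plus strand) has 2 and Cyp51 (chr5:4104698-4104947, minus strand) has 1. Of the LXR-type genes, Mylip (chr13:45389492-45389741, plus strand) has 3 and Abca1 (chr4:53159896-53160145, minus strand) has 0.

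Hmgcs1: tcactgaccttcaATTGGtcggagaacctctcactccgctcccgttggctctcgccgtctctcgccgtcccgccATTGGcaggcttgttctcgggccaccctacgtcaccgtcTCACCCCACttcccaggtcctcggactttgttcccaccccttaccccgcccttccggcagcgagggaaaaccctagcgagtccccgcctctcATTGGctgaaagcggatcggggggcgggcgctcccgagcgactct

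Idi1: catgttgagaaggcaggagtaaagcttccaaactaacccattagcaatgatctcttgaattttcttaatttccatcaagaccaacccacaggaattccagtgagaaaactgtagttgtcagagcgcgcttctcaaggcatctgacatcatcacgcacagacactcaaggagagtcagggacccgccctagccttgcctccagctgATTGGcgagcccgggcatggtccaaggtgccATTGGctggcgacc

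Cyp51: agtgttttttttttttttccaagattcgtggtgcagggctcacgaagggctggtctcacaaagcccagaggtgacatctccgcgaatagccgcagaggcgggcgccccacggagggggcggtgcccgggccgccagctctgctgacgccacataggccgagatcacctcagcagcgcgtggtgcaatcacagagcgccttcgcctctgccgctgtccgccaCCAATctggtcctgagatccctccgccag

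Mylip: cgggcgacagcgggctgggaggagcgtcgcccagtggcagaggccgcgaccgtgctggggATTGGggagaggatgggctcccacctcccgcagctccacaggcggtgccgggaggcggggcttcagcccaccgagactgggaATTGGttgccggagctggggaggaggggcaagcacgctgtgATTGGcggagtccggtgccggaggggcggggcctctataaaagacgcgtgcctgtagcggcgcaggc

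Abca1: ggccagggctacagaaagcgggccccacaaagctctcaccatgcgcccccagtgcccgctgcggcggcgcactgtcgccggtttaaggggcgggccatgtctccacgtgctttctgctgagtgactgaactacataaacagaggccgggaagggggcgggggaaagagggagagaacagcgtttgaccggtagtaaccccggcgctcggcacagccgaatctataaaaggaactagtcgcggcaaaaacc

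In the mevalonate part of the pathway, all 6 genes had lower mean values in G-MDSC and 2 of them passed the test. Idi1, the isomerase that makes dimethylallyl diphosphate, gave signals of 306 and 517 in the G-MDSC arrays against 2453 and 1499.5 in the neutrophil arrays. The groups did not overlap, and Idi1 was 4.67-fold lower in G-MDSC on the log2(signal + 16) scale (log2 difference -2.22 ± 0.38, SE, n = 2 per group; limma adjusted p = 0.00262). Its other probe set differed by -2.56. Mvd, which decarboxylates mevalonate diphosphate, gave signals of 258 and 333 against 945 and 646. It was 2.58-fold lower (-1.37 ± 0.36; limma adjusted p = 0.0241), and its other probe set differed by -1.41. The call of Mvd was lost with quantile normalization, median scaling, no intensity trend and the removal of each G-MDSC array.

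Hmgcs1, the synthase that makes HMG-CoA, missed the threshold by a narrow margin. It gave signals of 1598 and 1723 in the G-MDSC arrays against 5545 and 2616 in the neutrophil arrays. The groups did not overlap, but the neutrophil arrays differed widely from each other, and the log2 difference of -1.19 ± 0.37 had a limma adjusted p of 0.05004. The difference was -0.65 without neutrophils replicate 1 and -1.73 without neutrophils replicate 2. The other 3 of its probe sets that passed the filter differed by -1.53, -1.35 and -1.23.

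The remaining genes of this part differed less. Pmvk, the second mevalonate kinase, gave signals of 490 and 508 against 801 and 685, with a log2 difference of -0.56 (95% interval -1.27 to 0.16). Fdps, which joins isoprenes into farnesyl diphosphate, had 738 and 943 against 1018 and 1152, with a difference of -0.37 (-1.07 to 0.33). The signs of both turned with median scaling. Mvk, the first kinase, was dim throughout, with signals of 31.5 and 96.6 against 124 and 106, and its interval of -2.44 to 0.77 leaves its direction unsettled.

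From squalene to cholesterol, the steps differed among themselves. Of 11 genes, 4 were lower in G-MDSC, 1 was higher and 6 did not pass. Sqle, the squalene epoxidase that opens the oxygen-dependent part and is a control point of the pathway, showed the largest difference of all 27 genes. It gave signals of 129 and 138 in the G-MDSC arrays against 1092 and 888 in the neutrophil arrays, far apart in each comparison of arrays. It was 6.70-fold lower in G-MDSC (-2.74 ± 0.35, SE, n = 2 per group; limma adjusted p = 0.000567), the 232nd lowest difference of 13139. Sqle was called under each alternative that kept all 4 arrays, with limma adjusted p-values up to 0.0285. Some of these, named above, left its difference unchanged. With 1 array left out, the difference ran from -2.89 to -2.60.

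Cyp51, the lanosterol demethylase, gave signals of 219 and 226 in the G-MDSC arrays against 2023 and 864 in the neutrophil arrays. It was 5.62-fold lower (-2.49 ± 0.42; limma adjusted p = 0.0024). Neutrophils replicate 1 was much the brighter array, so the difference was -1.88 without it and -3.10 without neutrophils replicate 2. A second kept probe set differed by -2.39. Lss, the cyclase that folds oxidosqualene into lanosterol, had 89.1 and 130 against 411 and 358 and was 3.23-fold lower (-1.69 ± 0.43; limma adjusted p = 0.0205). The call of Lss was lost with no filter, quantile normalization, median scaling, no intensity trend and the removal of each G-MDSC array. Hsd17b7, a ketone reductase of the demethylation complex, had 152 and 141 against 431 and 551 and was 3.10-fold lower (-1.63 ± 0.39; limma adjusted p = 0.0146). Its other 3 probe sets differed by -1.36 to -1.91.

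Fdft1, the squalene synthase at the branch into sterols, gave signals of 525 and 636 in the G-MDSC arrays against 2229 and 889 in the neutrophil arrays. The arrays did not overlap, but its difference of -1.26 ± 0.42 did not pass (limma adjusted p = 0.0633) and ran from -0.61 without neutrophils replicate 1 to -1.92 without replicate 2. Another kept probe set of Fdft1 (336 and 333 against 940 and 885) differed by -1.40. The mean of the kept probe sets passed (limma adjusted p = 0.0210). Msmo1, the methyl oxidase, had 766 and 824 against 1677 and 1220, with a difference of -0.84 ± 0.32 (adjusted p = 0.105). Dhcr7, which makes the last double-bond reduction, was dimmer, at 127 and 83.9 against 157 and 185 (interval -1.79 to 0.50).

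Some steps between these showed no such difference. Ebp, the sterol isomerase, had nearly the same signal in every array, at 1571 and 1607 in the G-MDSC arrays against 1500.0 and 1530, and its log2 difference of 0.07 had a 95% interval of -0.59 to 0.72. Nsdhl, a dehydrogenase of the demethylation complex, had overlapping groups, at 359 and 525 against 360 and 653 (interval -1.02 to 0.71). Tm7sf2, a sterol reductase, overlapped too, at 189 and 159 against 164 and 117 (interval -0.77 to 1.35). The sign for Ebp turned with quantile normalization and that for Nsdhl with median scaling.

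Sc5d, the desaturase near the end of the pathway, ran the other way. It gave signals of 3055 and 3377 in the G-MDSC arrays against 1626 and 1447 in the neutrophil arrays, so that both G-MDSC arrays were higher. It was 2.08-fold higher in G-MDSC (1.06 ± 0.30, SE, n = 2 per group; limma adjusted p = 0.0323). Of its other probe sets, 1 differed by 1.85 and 1 by -0.09, and the call was lost in 6 alternatives, among them the mean of its probe sets and the removal of each G-MDSC array.

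**Figure D2:**
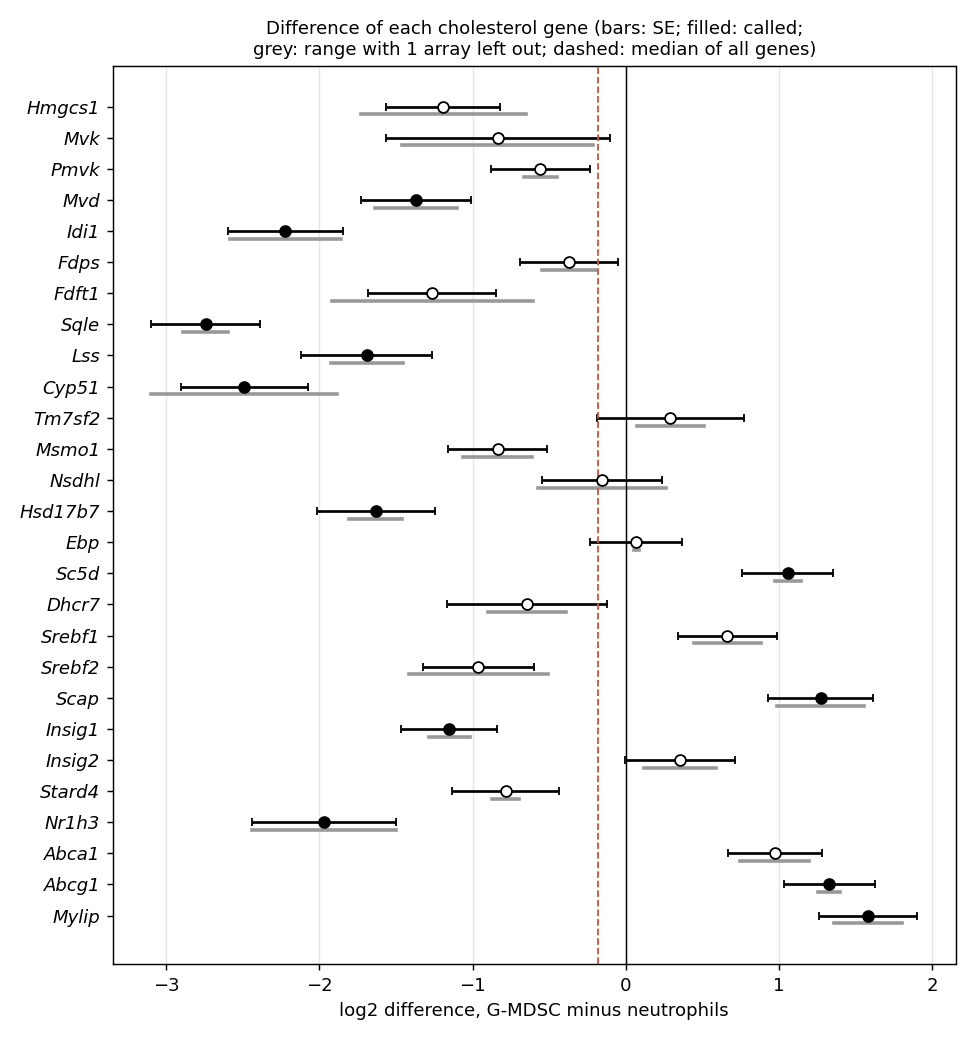
Log2 difference of each gene, G-MDSC minus neutrophils, with bars for the SE from limma, filled points for genes past the threshold and grey lines for the range when 1 array was left out. The enzymes Sqle (-2.74), Cyp51 (-2.49) and Idi1 (-2.22) lie farthest left and Mylip (1.58) farthest right, and the dashed line marks the median of all genes at -0.18.

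The genes that control SREBP were split. Insig1, the retention protein that is itself an SREBP target, was lower in G-MDSC, with signals of 573 and 694 against 1445 and 1396. The arrays within each group were close, and it was 2.22-fold lower (-1.15 ± 0.31, SE, n = 2 per group; limma adjusted p = 0.0282). Scap, the escort of SREBP, was higher, with 1185 and 797 against 378 and 408, or 2.42-fold (1.27 ± 0.34; limma adjusted p = 0.0271). Srebf2, which encodes SREBP2, had 1049 and 886 in the G-MDSC arrays against 2594 and 1379 in the neutrophil arrays. Its difference of -0.96 ± 0.36 did not pass (limma adjusted p = 0.0962). It was -1.41 without neutrophils replicate 2, -0.51 without neutrophils replicate 1 and -0.33 with median scaling. The other probe set of Srebf2 differed by -0.44.

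Srebf1, which encodes the SREBP1 proteins and is also an LXR target, gave signals of 1340 and 1159 in the G-MDSC arrays against 911 and 669 in the neutrophil arrays. Both G-MDSC arrays were higher, but its difference of 0.66 ± 0.32 did not pass (limma adjusted p = 0.199). Insig2, the second retention protein, had overlapping groups, at 472 and 643 against 361 and 506 (interval -0.43 to 1.14), and its sign turned when its probe sets were averaged. Stard4, a carrier that moves cholesterol between membranes and responds to SREBP, had 284 and 276 against 463 and 525. Its difference of -0.78 ± 0.35 did not pass (limma adjusted p = 0.162), though its other 2 probe sets differed by -1.66 and -1.55 and the mean of its probe sets passed (adjusted p = 0.0224).

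Among LXR-type genes, the targets Mylip and Abcg1 were higher and the receptor gene Nr1h3 lower in G-MDSC, and the target Abca1 did not pass. Mylip, the ligase IDOL, gave signals of 2555 and 3490 in the G-MDSC arrays against 869 and 1119 in the neutrophil arrays. The groups were well separated, and Mylip was 3.00-fold higher (1.58 ± 0.32, SE, n = 2 per group; limma adjusted p = 0.00692). Abcg1, which exports cholesterol to high-density lipoprotein, had 3137 and 3467 against 1296 and 1308 and was 2.51-fold higher (1.33 ± 0.30; limma adjusted p = 0.011). Replicates were close in both groups, and its second probe set differed by 1.999.

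Abca1, which loads cholesterol onto apolipoprotein A-I, gave signals of 4842 and 6632 in the G-MDSC arrays against 2850 and 2905 in the neutrophil arrays. Both G-MDSC arrays were higher, but the difference of 0.97 ± 0.31 just missed the threshold (limma adjusted p = 0.0508). The difference was 0.96 without neutrophils replicate 1 and 0.99 without neutrophils replicate 2. It was 1.20 without G-MDSC replicate 1 and 0.75 without G-MDSC replicate 2. Its other probe sets, with signals of 44.1 to 219, differed by -0.90 and -0.14, and the mean of its probe sets by 0.036 (adjusted p = 0.95). Nr1h3, which encodes the receptor LXR-alpha, had 79.8 and 114 in the G-MDSC arrays against 299 and 588 in the neutrophil arrays. It was 3.91-fold lower (-1.97 ± 0.47; limma adjusted p = 0.0154), opposite to Abcg1 and Mylip. Macrophages are known to express Nr1h3, and the macrophage markers were lower in the same G-MDSC arrays, as given above, a link that was not tested.

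Other genes of these pathways did not share one direction. The counts of the lists below stand beside 8.30% of all genes tested that were higher in G-MDSC and 8.05% that were lower. Of 11 further SREBP2 pathway genes tested, 1 was higher in G-MDSC and 1 lower, with a median log2 difference of 0.45. Aacs, which makes acetoacetyl-CoA from ketone bodies for sterol synthesis, was higher (1252 and 1248 against 418 and 459; 1.48 ± 0.32, limma adjusted p = 0.00906). Acat1, the mitochondrial thiolase, was lower (516 and 461 against 1019 and 1316; -1.22 ± 0.33, adjusted p = 0.0258). Of 12 fatty acid synthesis genes, which SREBP1 drives, limma called 0, with 2 lower at an unadjusted p under 0.05 and a median of -0.57. The brightest, Elovl5, an elongase, had overlapping groups, at 1932 and 2251 against 2030 and 2596.

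Of 14 further LXR and efflux genes, G-MDSC were higher in 3 and lower in 3, with a median log2 difference of 0.005. Rxrb, which encodes a partner receptor of LXR, was higher by 1.70 ± 0.33 (3268 and 3506 against 1288 and 821; limma adjusted p = 0.00516). Smpdl3a, a phosphodiesterase, was higher by 1.28 ± 0.32 (8668 and 12905 against 3839 and 4915), and Nceh1, a cholesteryl ester hydrolase, by 1.18 ± 0.34. Lpl, lipoprotein lipase, showed the largest fall of these lists, with 119 and 79.8 in the G-MDSC arrays against 6538 and 10049 in the neutrophil arrays, a difference of -6.16 ± 0.35 (limma adjusted p = 2.6e-06). Pltp, which transfers phospholipids, differed by -2.66 ± 0.44 and Ch25h, which makes the oxysterol 25-hydroxycholesterol, by -2.13 ± 0.51. The macrophage markers were lower in the same arrays, and their part in these falls was not tested.

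Of 8 genes of sterol trafficking, 1 was higher and 2 lower. Osbpl2, an oxysterol-binding protein relative, was higher by 2.07 ± 0.32 (3414 and 2991 against 881 and 633; limma adjusted p = 0.00149). Npc2, the lysosomal cholesterol carrier, was lower by 2.04-fold (7592 and 8500 against 16248 and 16487; adjusted p = 0.0354). Lipa, the lysosomal acid lipase that frees cholesterol from esters, was lower by 2.12-fold (2695 and 2354 against 6956 and 4112; adjusted p = 0.048). Over all 45 genes of these 4 lists, 5 were higher and 6 lower, where 8.30% of all genes tested were higher and 8.05% lower. Their median was -0.18, that of all genes tested.

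**Figure D3:**
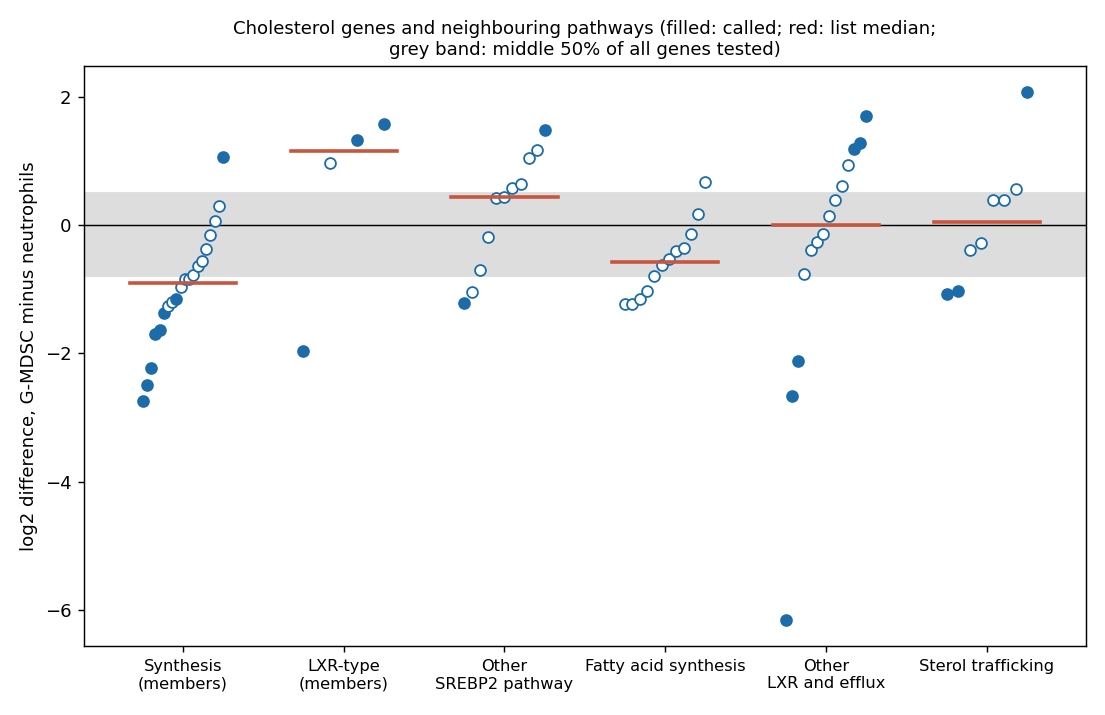
Log2 difference of each gene, G-MDSC minus neutrophils, in the synthesis and LXR-type genes and in 4 neighbouring lists, with filled points for genes past the threshold and red lines for the medians. The synthesis median lies at -0.90 and the LXR-type median at 1.15, the other lists lie between -0.57 and 0.45, and the grey band holds the middle 50% of all genes, from -0.80 to 0.50.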

How the data were processed

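Total RNA from 4 samples was hybridised to Affymetrix mouse expression arrays, 1 per sample. The authors deposited linear signal intensities; the submitters' processing notes name GCOS 1.4 and MAS5. The table held 45101 probe sets, 64 of them controls. Gene symbols came from the platform annotation, and the 27 matched genes had the same symbols in RefSeq by gene ID.

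Signals were used as log2(signal + 16), which shrinks folds at low signal. Probe sets were retained when above their array's 40th percentile in at least 2 arrays (28754 probe sets), and each gene was represented by the one with the highest mean. Differences were tested across all 13139 genes with limma 3.58.1 in R 4.3.3 (lmFit and eBayes with an intensity trend, two-sided, Benjamini-Hochberg over all genes, threshold 0.05). The fit was tested on simulated data. Figures used matplotlib 3.10.9. With 2 arrays a group, array number limits the precision, and an exact permutation test cannot go below p = 0.33, so none was run. Genes, lists and alternatives were chosen with earlier results of these data known. All 30 genes were to be named, with up to 4 called genes per direction of each pathway list, or its brightest, and up to 3 of each marker list reported. Csf1r and Adgre1 of the macrophage list and Hdc and Kit of the mast cell list were added to these. Results of the B cell and erythroid marker lists are 2 of 6 and 0 of 5 tested genes higher and none lower, with the erythroid count also 0 at an unadjusted p under 0.05. Alternatives were pseudocounts of 1 and 64, no filter and a filter at the 60th percentile, quantile and median scaling, no intensity trend, the mean of probe sets, a floor for low signals, a replicate block, and removal of each array in turn.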

Additional observations from a re-analysis of the deposited data

How the results depend on the processing

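With 2 arrays a group, calls rest on variances moderated across genes. Without the intensity trend, limma called 148 genes higher and 331 lower in G-MDSC, and of the cholesterol genes 0 higher and 1 lower (5 and 9 at an unadjusted p under 0.05), with 0 higher and 1 lower synthesis gene, 0 LXR-type genes in either direction and 1 pathway list gene in each. With median scaling, 395 genes were lower, 0 cholesterol genes were higher (3 at an unadjusted p under 0.05) and 3 lower, 0 synthesis genes were higher and 2 lower, 0 LXR-type genes were higher, and the pathway lists had 3 higher and 2 lower. Synthesis genes higher numbered 0 (1 at an unadjusted p under 0.05) with quantile normalization and with the mean of probe sets. With no filter, LXR-type genes lower numbered 0 (1 at an unadjusted p under 0.05) and pathway genes lower 3. With the floor for low signals, 8 pathway genes were higher. The replicate number is not stated to pair samples. With the replicate block limma called 1699 genes higher and 1607 lower, and 8 pathway genes higher; all 12 called cholesterol genes remained called, and 5 were then higher and 11 lower in all. Deviations of same-numbered arrays correlated at 0.24 across genes. Leaving out 1 array in turn gave 429 to 2419 genes higher and 561 to 3472 lower, and cholesterol genes 0 to 6 higher and 3 to 12 lower. Synthesis genes ran from 0 to 1 higher and 3 to 11 lower, LXR-type genes from 0 to 3 higher and 0 to 1 lower, and pathway genes from 2 to 10 higher and 2 to 10 lower. A lone array was assumed to vary like the other group. Of single-gene values, 7 changed sign, all in genes not called: Pmvk (0.062), Fdps (0.26) and Nsdhl (0.46) with median scaling, Ebp with quantile normalization (-0.086), Insig2 with the mean of probe sets (-0.047), and Nsdhl when G-MDSC replicate 1 (0.11) or neutrophils replicate 2 (0.26) was left out, with a range of -0.57 to 0.26 over the 4 arrays. The other 369 kept their direction, which the intensity trend and the replicate block cannot change, with 42 calls lost and 20 gained. Except where stated, the cause was not tested.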
